A study of Mus musculus with 2 samples.

Results

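The BMP genes described here are 9 of the 32285 genes listed in both count matrices, chosen by symbol as named. The rule used no measured value, but the genes were chosen with earlier results of these data known. They are the ligands Bmp2, Bmp3, Bmp4 and Bmp7, the secreted antagonists Grem1, Sostdc1 and Fst, the pseudoreceptor Bambi and the receptor Bmpr1a. The animals were wild-type males of the strain C57BL/6, 3 in number and 52 weeks old, and no treatment was given in the labels. Skin from the back formed the first group and the preputial gland (PG), a paired sebaceous-like gland of rodents, formed the second. Cells from the 3 mice were pooled for each tissue into 1 library, so n = 1 per tissue and the spread between mice is not known. No p-value is therefore given, tissue and library cannot be told apart, and the libraries also differed in the length of their barcode list, 6794880 barcodes in skin and 737280 in PG. Lists of these lengths belong to different versions of the capture chemistry, while the labels give the same kit for both libraries. A difference in chemistry, which can change the capture of each gene, therefore cannot be told apart from tissue in any ratio below.

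BMPs are secreted signals of the TGF-β family. They bind pairs of receptors that phosphorylate the Smad1 and Smad5 proteins, which enter the nucleus with Smad4 and switch on targets such as the Id and Msx genes. Antagonists hold the ligands away from the receptors. In skin, BMP signals keep hair follicle stem cells at rest, inhibitors around them are part of the signal for growth, and the receptor Bmpr1a is needed for the hair matrix to form the shaft and the inner sheath.

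Barcodes with at least 500 genes, at least 1000 UMIs (unique molecular identifiers, each counting 1 captured RNA molecule) and at most 10% mitochondrial UMIs were kept. This left 8899 barcodes with 27407186 UMIs in skin and 4699 barcodes with 15270076 UMIs in PG, and the median barcode held 2386 and 2729 UMIs. Each barcode was given a class from marker genes. The class names end in "-like" because they rest on those markers alone. The largest epithelial class was basal-like (Krt5, Krt14 and the hemidesmosome genes), with 2959 barcodes in skin and 1584 in PG. Of the hemidesmosome genes, Col17a1 was found in 91.6% of these barcodes in skin and 46.2% in PG, and Dst in 79.6% and 69.3%. Itga6 (59.4% and 60.7%) and Itgb4 (29.0% and 37.0%) were not found less often in PG. Suprabasal-like barcodes numbered 1182 and 67, upper-follicle-like 364 and 410, sebocyte-like 21 and 620, fibroblast-like 957 and 597, and contractile 21 and 27. Skin also held 843 sheath-like (outer root sheath), 223 matrix-like and 386 inner-root-sheath-like barcodes. Of the sheath markers, Postn was found in 76.9% of the sheath-like barcodes, Lhx2 in 58.0%, Cd34 in 49.5% and Krt6a in 37.1%. Krt24 (29.8%), Lgr5 (16.4%), Krt75 (5.10%) and Fgf18 (4.98%) were found in fewer. Matrix-like barcodes carried Lef1 (89.2% of them), Hoxc13 (88.3%) and the hair keratin Krt35 (83.4%). Krt31 (16.1%), Krt32 (4.48%) and Shh (4.04%) were found in few of them. Whether this class holds matrix cells or cells of the forming hair shaft was not tested. The PG suprabasal-like barcodes carried Krtdap, Dmkn and Lgals7, but Krt10 was found in 11.9% of them and Krt1 in 4.48%, so their name is weakly held. In PG, 100 barcodes met the sheath gate, with no UMI of Krt24, Lgr5 or Lhx2 among them, and no sheath-like class was formed there. No class was given to 16.4% of skin and 24.0% of PG barcodes, and 0 kept barcodes were shared by the libraries.

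Levels are the summed UMIs of a gene per 1000000 summed UMIs of the class (CPM), followed in parentheses by the exact 95% Poisson interval. These intervals, like those of the ratios, cover counting error only. The libraries count the 3′ ends of transcripts, and levels are compared for the same gene between classes and tissues, not between genes. In basal-like barcodes, Krt5 stood at 4174 CPM in skin and 1429 in PG, Krt14 at 8026 and 1940, and Col17a1 at 1560 and 224. Dst (820 and 443) and Itga6 (398 and 327) were also lower in PG, and Itgb4 was higher (127 and 156). Whether the basal-like classes hold the same kinds of cell in both tissues was not tested. This limits every basal-like ratio of the tissues below. In fibroblast-like barcodes, Col1a1 stood at 6773 CPM in skin and 2255 in PG, and Dcn at 10324 and 17606. Whether the fibroblast-like classes hold the same kinds of cell was not tested either, which limits their ratios in the same way. Free RNA was read from barcodes with at most 100 UMIs. There the 9 genes lay between 4.04 (Bmp3) and 39.0 CPM (Fst) in skin and between 0.777 (Bmp3) and 30.7 CPM (Bmpr1a) in PG.

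The 250 bases in front of Bmp4 and Grem1 are shown, from the few genes whose promoter sequence was at hand. Both genes were close to the counting limit in PG epithelium while PG fibroblast-like barcodes carried them. The same held for Bmp2 and Bmp3, for which no promoter sequence was at hand. No skin basal-like barcode held UMIs of both Bmp4 and Grem1, where 5.26 were expected if the genes were independent. The sequences are from RefSeq (GRCm38.p6), printed 5′ to 3′ on the minus strand. Bmp4 lies before the ligand gene at chr14:46390670-46390919 and Grem1 before the antagonist gene at chr2:113758649-113758898. Neither window overlaps an exon of its own gene annotated in GENCODE vM21. Exons of other genes were not searched. Capitals mark GGCGCC, a motif bound by BMP-activated Smads, and the general Smad motif CAGAC on either strand.
Bmp4: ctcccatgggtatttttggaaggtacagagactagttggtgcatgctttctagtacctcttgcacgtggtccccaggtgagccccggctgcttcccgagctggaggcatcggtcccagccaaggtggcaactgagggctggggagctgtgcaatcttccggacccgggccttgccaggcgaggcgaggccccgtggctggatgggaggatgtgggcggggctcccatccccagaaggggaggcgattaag
Grem1: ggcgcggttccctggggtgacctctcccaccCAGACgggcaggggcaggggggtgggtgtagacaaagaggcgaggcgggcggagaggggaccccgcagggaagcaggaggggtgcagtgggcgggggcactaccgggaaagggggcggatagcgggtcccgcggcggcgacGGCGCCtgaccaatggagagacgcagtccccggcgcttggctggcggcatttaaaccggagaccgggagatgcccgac
Searched on both strands, the window of Bmp4 held 0 matches to GGCGCC. It held 0 matches to CAGAC and 1 to the box GGGCGG, bound by Sp1, at a G and C content of 63.2%. The window of Grem1 held 1, 1 and 3 matches to these motifs, which do not overlap one another, at 72.0%. Of 32851 promoter windows of this length, 9.59% held GGCGCC on either strand. The shares for CAGAC and for GGGCGG were 42.2% and 32.7%. These are matches of letters and not binding sites. Promoter sequence was at hand for 3 of the 9 genes, and that of Bmpr1a was left out because its window overlaps annotated exons.

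Bmp4, a ligand made by dermal cells and parts of the follicle (ENSMUSG00000021835, chr14:46383520-46390669 in mm10, minus strand), was a gene of several skin classes and of a single large PG class. In skin it stood at 51.7 CPM (38.9 to 67.3) in matrix-like, 41.7 (37.5 to 46.2) in basal-like, 41.1 (32.5 to 51.2) in fibroblast-like and 23.1 (16.1 to 32.1) in inner-root-sheath-like barcodes. The first 3 of these did not differ beyond counting error. It was lower in suprabasal-like (10.3), sheath-like (8.59) and upper-follicle-like barcodes (0.870, 1 UMI). In PG it stood at 77.2 CPM (60.2 to 97.5) in fibroblast-like barcodes, which held 78.7% of the Bmp4 UMIs of that library, and at 0.645 (0.133 to 1.89, 3 UMIs) in basal-like, 1.08 (2 UMIs) in upper-follicle-like and 0.576 CPM (2 UMIs) in sebocyte-like barcodes. Basal-like barcodes of the tissues thus differed 64.6-fold, higher in skin, with a log2 ratio of PG over skin of -6.01 (-8.30 to -4.46). Fibroblast-like barcodes differed by 0.91 (0.42 to 1.39), which is under 2-fold. The annotation places a protein-coding gene and an antisense gene on the other strand over Bmp4, and whether counting used the strand was not given in the sources used here.

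Bmp2, a ligand that signals through the same receptors as Bmp4 (ENSMUSG00000027358, chr2:133552159-133562885, plus strand), was also found in several skin classes. Its level was 42.3 CPM (30.8 to 56.6) in matrix-like, 28.7 (25.3 to 32.5) in basal-like, 23.4 (17.1 to 31.3) in fibroblast-like, 21.1 (15.6 to 27.8) in sheath-like and 17.0 (13.6 to 21.1) in suprabasal-like barcodes. No UMI was found in 386 inner-root-sheath-like barcodes, where a count of 0 allows up to 1.98 CPM when it is set to 3 counts. PG epithelium carried little of it, 1.08 CPM (0.349 to 2.51, 5 UMIs) in basal-like and 0.576 CPM (2 UMIs) in sebocyte-like barcodes. The PG fibroblast-like level of 28.7 CPM (18.7 to 42.0) did not differ from that of skin beyond counting error (log2 0.29, -0.46 to 1.02). In basal-like barcodes the ratio was -4.74 (-6.37 to -3.50), 26.7-fold higher in skin. Bmp2 was also present in myeloid-like barcodes, at 16.5 CPM (7 UMIs) in skin and 23.0 CPM (10 UMIs) in PG.

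Bmp3, a family member that lacks the activity of the other ligands and can oppose them (ENSMUSG00000029335, chr5:98854415-98884396, plus strand), was found in fewer skin classes. It stood at 32.9 CPM (29.2 to 36.9) in basal-like and 32.8 (25.2 to 41.9) in fibroblast-like barcodes, which together with 22 UMIs in sheath-like barcodes made up most of its 427 UMIs. Matrix-like, upper-follicle-like and sebocyte-like barcodes of skin had none. In the 21 sebocyte-like barcodes a count of 0, set to 3 counts, allows up to 28.9 CPM, which does not set them apart from basal-like barcodes. In PG, Bmp3 had 15 UMIs in all, 10 of them in fibroblast-like barcodes (11 CPM, 5.29 to 20.3) and 1 in basal-like barcodes. The basal-like ratio was -7.25 (-12.56 to -4.77) and the fibroblast-like ratio -1.57 (-2.70 to -0.60), both higher in skin.

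Bmp7, a ligand of a separate branch of the family with known roles in epithelia (ENSMUSG00000008999, chr2:172868012-172940321, minus strand), went the other way. PG carried it in every epithelial class, at 127 CPM (81.5 to 189) in the 67 suprabasal-like, 99.8 (85.9 to 115) in upper-follicle-like, 79.6 (71.7 to 88.1) in basal-like and 43.5 (36.9 to 51.0) in sebocyte-like barcodes. Except for the first pair, each step down this order was larger than counting error. In skin, basal-like barcodes stood at 11.5 (9.35 to 14.0) and suprabasal-like at 4.72 CPM (2.99 to 7.09), while matrix-like (62.0, 48.0 to 78.9) and upper-follicle-like barcodes (53.9, 41.3 to 69.1) were highest and did not differ from each other beyond counting error. Basal-like barcodes were 6.93-fold higher in PG (log2 2.79, 2.47 to 3.13). In PG myeloid-like barcodes, which should lack an epithelial gene, Bmp7 was at 11.5 CPM (5 UMIs), and free RNA of PG held it at 30.3 CPM. Skin sebocyte-like barcodes had 0 Bmp7 UMIs among 103696, against 151 UMIs in PG, so with 0 set to 3 counts the PG level was 1.5-fold higher. The log2 interval began at 0.27, and the gene did not pass 2-fold in these 21 barcodes.

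Within a tissue, Bmp7 was also ordered differently. It was higher in fibroblast-like than in basal-like barcodes in skin (36.4 against 11.5 CPM, log2 1.66, 1.2 to 2.12) and lower in PG (19.8 against 79.6 CPM, log2 -2.0, -2.77 to -1.32). The difference between these ratios was not tested.

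**Figure D1:**
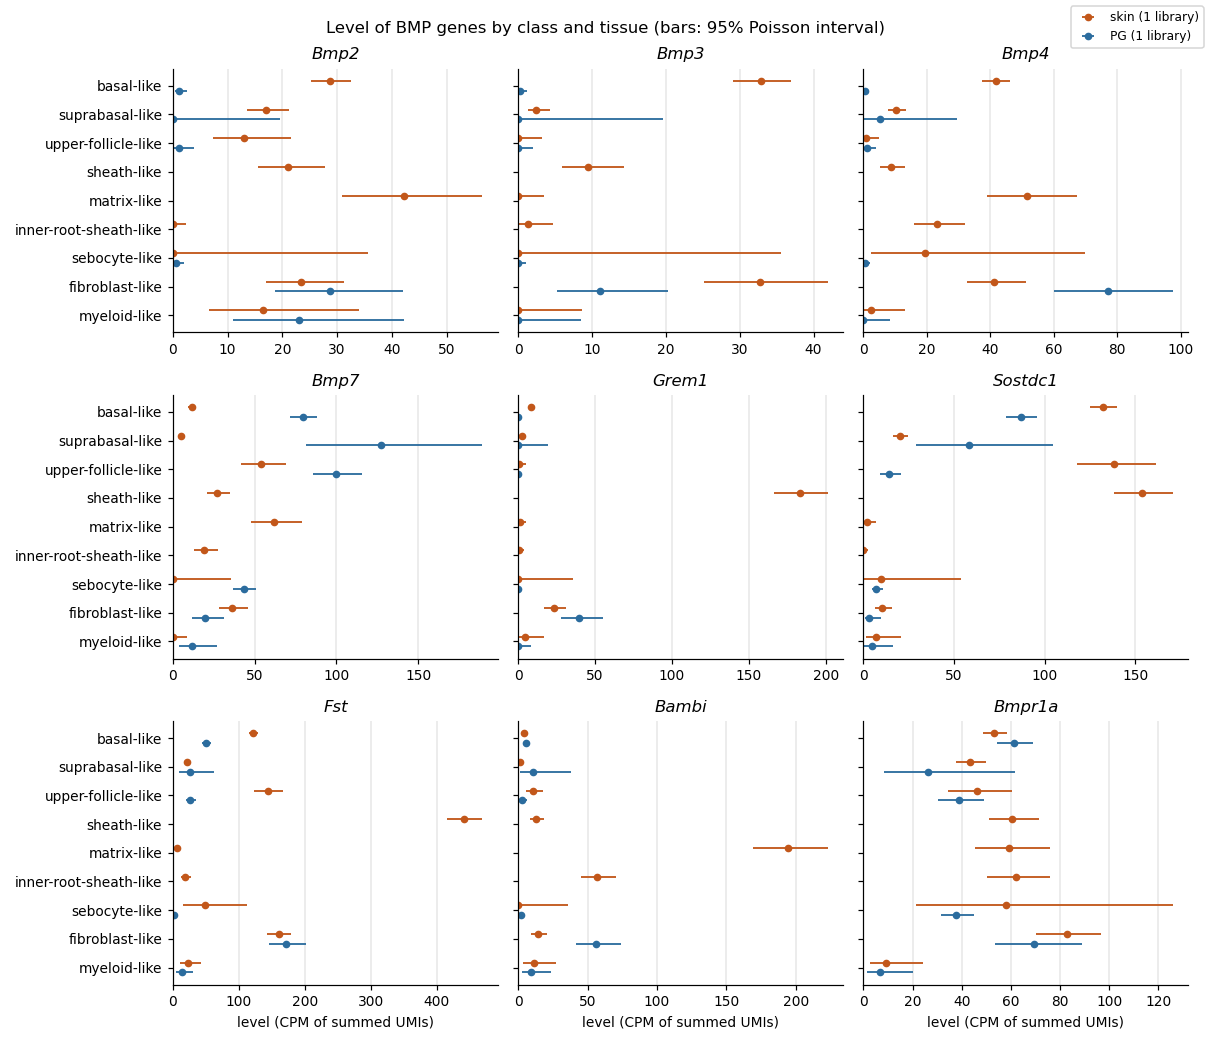
Level of each BMP gene (x axis, CPM of summed UMIs, a separate linear scale for each gene) by class (y axis) in skin (orange) and PG (blue), 1 library each, with bars for the 95% Poisson interval and no point where a tissue had no such class. Bmp2, Bmp3, Bmp4 and Grem1 lie near 0 in PG basal-like, upper-follicle-like and sebocyte-like barcodes. PG suprabasal-like barcodes are too few to place them, since 3 counts equal 15.9 CPM there. In skin upper-follicle-like barcodes, Bmp3, Bmp4 and Grem1 also have no more than 1 UMI each. Bmp7 is higher in PG basal-like barcodes (79.6 against 11.5 CPM). Bmpr1a does not pass 2-fold against basal-like barcodes in any epithelial class.

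Among the antagonists, Grem1, which binds BMP ligands outside the cell (ENSMUSG00000074934, chr2:113746164-113758646, minus strand), was concentrated in few classes. In skin 68.7% of its UMIs were in sheath-like barcodes, at 183 CPM (166 to 201), against 23.4 (17.1 to 31.3) in fibroblast-like, 8.27 (6.47 to 10.4) in basal-like and 0.939 CPM (1 UMI) in matrix-like barcodes. No UMI was found among 1584 basal-like, 410 upper-follicle-like or 620 sebocyte-like barcodes of PG. Set to 3 counts, a count of 0 allows up to 0.645 CPM in PG basal-like barcodes, and the skin level was 12.8-fold higher against that limit (log2 interval of PG over skin ending at -3.34). Grem1 in PG was a stromal gene, at 39.7 CPM (27.8 to 54.9) in fibroblast-like barcodes and 261 CPM (130 to 467, 11 UMIs) in the 27 contractile barcodes, against 45.1 CPM (2 UMIs) in 21 contractile barcodes of skin.

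Sostdc1, a secreted inhibitor of BMP and Wnt signals known from teeth and hair follicles (ENSMUSG00000036169, chr12:36314139-36318452, plus strand), was an epithelial gene in both tissues. Skin sheath-like (154 CPM, 138 to 171), upper-follicle-like (138, 118 to 162) and basal-like barcodes (132, 125 to 140) were close together, and suprabasal-like barcodes were lower (20.3, 16.5 to 24.8). In PG it stood at 86.7 (78.4 to 95.6) in basal-like and 58.3 CPM (29.1 to 104, 11 UMIs) in suprabasal-like barcodes, a difference within counting error, and was lower in upper-follicle-like (14.1, 9.21 to 20.7) and sebocyte-like barcodes (7.21, 4.66 to 10.6). The tissues differed by less than 2-fold in basal-like barcodes (log2 -0.61, -0.78 to -0.44) and 9.81-fold in upper-follicle-like barcodes, higher in skin (log2 -3.29, -3.95 to -2.69). Fibroblast-like barcodes had 10.4 CPM (20 UMIs) in skin and 3.31 CPM (3 UMIs) in PG.

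Fst encodes follistatin, which traps activins and, more weakly, BMPs (ENSMUSG00000021765, chr13:114452290-114458951, minus strand, with an antisense gene over it). Skin sheath-like barcodes stood at 441 CPM (415 to 469), and the next class, the fibroblast-like barcodes, at 161 (143 to 180), a log2 ratio of 1.46 (1.27 to 1.65). Upper-follicle-like (144, 122 to 167) and basal-like barcodes (122, 115 to 129) followed. In PG the order began with fibroblast-like barcodes (172, 146 to 201), then basal-like (50.8, 44.5 to 57.7) and upper-follicle-like (26.6, 19.7 to 35.1), and sebocyte-like barcodes had 1.15 CPM (4 UMIs). Fibroblast-like barcodes did not differ between tissues beyond counting error (log2 0.10, -0.19 to 0.38), while basal-like barcodes were 2.40-fold and upper-follicle-like barcodes 5.40-fold higher in skin.

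Bambi, a membrane protein shaped like a BMP receptor but without its kinase, was highest in a hair class of skin. In skin it was at 194 CPM (169 to 223) in matrix-like and 56.8 (45.4 to 70.1) in inner-root-sheath-like barcodes, and at 4.37 (3.09 to 5.99) in basal-like and 14.0 CPM (9.25 to 20.4) in fibroblast-like barcodes. PG had neither hair class, and its fibroblast-like barcodes stood at 56.2 CPM (41.9 to 73.9), 4.0-fold above those of skin (log2 2.0, 1.30 to 2.73). Endothelial barcodes carried Bambi in both tissues, at 72.7 CPM (37.6 to 127, 12 UMIs) in skin and 53.6 (17.4 to 125, 5 UMIs) in PG. These levels were within counting error of the skin inner-root-sheath-like and the PG fibroblast-like level. PG sebocyte-like barcodes had 1.73 CPM (6 UMIs).

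Bmpr1a, the type I receptor for Bmp2 and Bmp4 (ENSMUSG00000021796, chr14:34410734-34503341, minus strand, with an antisense gene over it), did not pass 2-fold against basal-like barcodes in any epithelial or fibroblast-like class. Its skin epithelial levels ran from 43.5 CPM (37.9 to 49.8) in suprabasal-like to 62.1 (50.2 to 75.9) in inner-root-sheath-like barcodes, and fibroblast-like barcodes had 82.7 (70.3 to 96.6). In PG, levels were 61.3 (54.4 to 68.9) in basal-like, 69.4 (53.4 to 88.9) in fibroblast-like and 37.8 CPM (31.6 to 44.8) in sebocyte-like barcodes. PG sebocyte-like (log2 -0.70, -1.01 to -0.40) and upper-follicle-like barcodes (-0.65, -1.04 to -0.27) were below basal-like ones beyond counting error. Myeloid-like barcodes had 9.41 CPM (4 UMIs) and 6.90 CPM (3 UMIs). The ratio of PG to skin was 0.20 (-0.02 to 0.42) in basal-like, -0.24 (-0.77 to 0.30) in upper-follicle-like and -0.25 (-0.70 to 0.18) in fibroblast-like barcodes on the log2 scale.

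Shares of barcodes with a UMI, after every barcode was thinned to 1000 UMIs, followed the levels. Among basal-like barcodes, Bmp4 was read in 3.75% (3.10 to 4.50, exact Clopper-Pearson) in skin and 0.0631% (0.00160 to 0.351) in PG, and Bmp7 in 1.05% (0.713 to 1.48) and 8.33% (7.02 to 9.80). Before thinning, these shares were 10.3% and 0.189% for Bmp4, and 3.28% and 20.2% for Bmp7. In myeloid-like barcodes, with a median of 1928 UMIs in skin and 1941 in PG against 2560 and 2709.5 in basal-like barcodes, the thinned shares of both genes were 0 in both tissues, which the intervals limit to 1.82% and 1.87%. Grem1 was read in 18.3% (15.7 to 21.0) and Fst in 24.4% (21.6 to 27.5) of sheath-like barcodes, against 0.498% and 1.99% of skin myeloid-like barcodes. Bambi was read in 17.5% (12.7 to 23.1) of matrix-like barcodes, against 1.49% of skin myeloid-like barcodes. A share of 1% or more of basal-like barcodes was reached by 8 of the 9 genes in skin, all but Bambi. In PG it was reached by 4, Bmp7, Sostdc1, Fst and Bmpr1a. The share of all genes reaching 1% is not given, so these counts have no background. In skin, the intervals of Bmp7 (0.713 to 1.48) and Grem1 (1.08%, 0.741 to 1.52) began below 1%. The counts also depended on depth. Thinned to 2000 UMIs, Grem1 was read in 0.692% of 2023 skin barcodes and Bambi in 1.15% of 1216 PG barcodes.

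Set side by side, PG basal-like epithelium had lower levels of Bmp2, Bmp3, Bmp4, Grem1 and Fst and a higher level of Bmp7 than skin. In fibroblast-like barcodes, which held fewer UMIs, 7 of the 9 genes did not pass 2-fold. Of all genes there, 9.02% were higher in PG and 6.90% in skin, so most genes did not pass either. A gene was counted as past 2-fold when its ratio reached 2 in either direction with the interval on the same side, among genes with at least 10 UMIs over both groups. In basal-like barcodes all 9 genes had that many UMIs. The 5 that were higher in skin stand against 16.8% of all 13324 genes read there, and the 1 higher in PG, Bmp7, against 18.2%. The median log2 ratio of the 9 was -1.26, beside 0.09 over all genes read. The 5 genes higher in skin were the same under every alternative run except at a 4-fold limit, where Fst left them, and Bambi joined Bmp7 as higher in PG under 3 alternatives.

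In upper-follicle-like barcodes 6 of the 9 had at least 10 UMIs, and those without were Bmp3, Bmp4 and Grem1. Of the 6, Bmp2 (log2 -3.59, -6.76 to -1.48), Sostdc1, Fst and Bambi (log2 -1.94, -3.80 to -0.34) were higher in skin, where 16.2% of all genes were, and 0 were higher in PG, against 13.2%. Bambi rested on 12 and 5 UMIs, it did not pass under 5 alternatives, and its ratio changed sign when classes were taken from clusters. Free RNA was estimated at 10.6% of the UMIs of this class in skin and 28.5% in PG, and the same 4 genes were higher in skin with it subtracted. In fibroblast-like barcodes all 9 were read. Bambi was higher in PG, against 9.02% of all genes, and Bmp3 higher in skin, against 6.90%. Neither call was left when barcodes needed at least 1000 genes and 2000 UMIs, which left 67 fibroblast-like barcodes in PG.

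The remaining classes gave fewer reads. In suprabasal-like barcodes Bmp7 (26.9-fold, 24 UMIs in PG) and Sostdc1 (2.87-fold, 11 UMIs in PG) were higher in PG, beside 10.5% of all genes, and 0 of the 9 were higher in skin, beside 9.85%. Sostdc1 did not pass with the mean of CPM per barcode (58.1 against 30.2) or at 4-fold, and the class had too few barcodes under 2 alternatives. In sebocyte-like barcodes 3 of the 9 had at least 10 UMIs and 0 passed in either direction, where 3.86% of all genes were higher in PG and 7.11% higher in skin. Fst, under that limit, had 5 UMIs in skin (48.2 CPM) and 4 in PG (1.15 CPM), log2 -5.39 (-7.72 to -3.17). Bmp4 had 2 UMIs in each tissue, log2 -5.06 (-8.85 to -1.28). Neither was counted. The 21 sebocyte-like barcodes of skin set the limit here, since their Bmpr1a level of 57.9 CPM (21.2 to 126) rested on 6 UMIs. In contractile barcodes Grem1 alone had at least 10 UMIs, and it was 5.80-fold higher in PG (log2 2.54, 0.34 to 5.75), where 9.41% of all genes were, with 7.71% higher in skin.

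**Figure D2:**
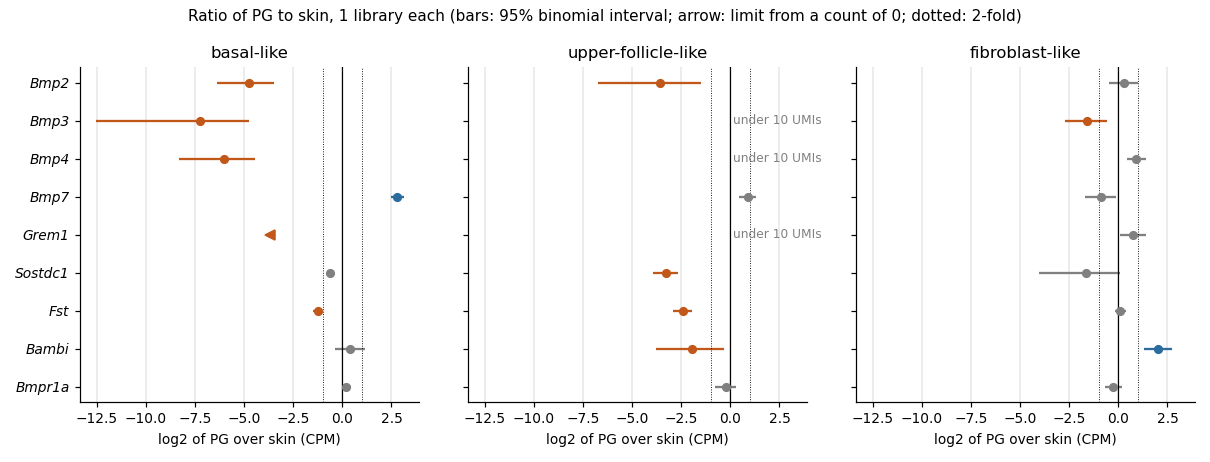
Ratio of PG to skin (x axis, log2 of the CPM ratio) for the 9 genes in basal-like, upper-follicle-like and fibroblast-like barcodes, 1 library per tissue, with bars for the 95% binomial interval, an arrow for the limit set by a count of 0, dotted lines at 2-fold, and colour (orange skin, blue PG) for genes past 2-fold. In basal-like barcodes Bmp7 stands at 2.79 while 5 genes lie at -1.26 or below, and in fibroblast-like barcodes only Bmp3 and Bambi pass.

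Between classes of the same tissue, the 9 genes divided skin into compartments. Against basal-like barcodes, sheath-like barcodes of skin were higher in Grem1 (log2 4.47, 4.10 to 4.85), Fst (1.86, 1.73 to 1.98), Bambi (1.56, 0.82 to 2.29) and Bmp7 (1.24, 0.76 to 1.71), 4 of 9 genes beside 9.36% of all genes. They were lower in Bmp4 (-2.28, -3.01 to -1.63) and Bmp3 (-1.80, -2.49 to -1.17), 2 of 9 beside 3.39%. In this contrast Grem1 and Fst were thus higher and Bmp3 and Bmp4 lower, and Sostdc1 did not pass (0.22, 0.04 to 0.39). The order did not hold in every class, since skin fibroblast-like barcodes carried Fst (161 CPM) with Bmp3 (32.8) and Bmp4 (41.1).

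Matrix-like barcodes were higher than basal-like ones in Bambi (5.48, 4.97 to 6.02) and Bmp7 (2.43, 1.96 to 2.90), 2 of 9 beside 13.9%. They were lower in all 3 antagonists, Sostdc1 (-6.14, -9.18 to -4.28), Fst (-4.43, -5.88 to -3.31) and Grem1 (-3.14, -8.46 to -0.61), and in Bmp3, 4 of 9 beside 15.7%. Bmp4 and Bmp2 did not pass, with log2 ratios of 0.31 (-0.13 to 0.72) and 0.56 (0.07 to 1.02). The matrix-like class thus carried Bmp2, Bmp4, Bmp7 and the pseudoreceptor with few antagonist UMIs.

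Skin fibroblast-like barcodes were higher than basal-like ones in Bmp7, Grem1 (1.5, 0.93 to 2.06) and Bambi (1.69, 0.92 to 2.44), 3 of 9 beside 20.5%, and lower in Sostdc1, 1 of 9 beside 14.2%. PG fibroblast-like barcodes were higher in 6 of 9, namely Bmp2 (4.74, 3.33 to 6.47), Bmp3, Bmp4 (6.90, 5.30 to 9.21), Grem1, Fst (1.76, 1.46 to 2.06) and Bambi (3.27, 2.57 to 4.0), beside 19.9%, and lower in Bmp7 and Sostdc1 (-4.71, -7.00 to -3.15), 2 of 9 beside 16.9%. The highest level of a gene, endothelial and contractile classes included, lay in an epithelial class for 7 of the 9 genes in skin, which had 7 epithelial classes, and for 2 of the 9 in PG, which had 4, namely Bmp7 and Sostdc1. The share of all genes with their highest level in an epithelial class is not given, so these counts have no background. For Bmp2 in both tissues, Bmpr1a in skin and Bmp3 in PG the top was the contractile class with 1 to 4 UMIs, within counting error of the next class, as was the PG fibroblast-like top of Bmpr1a. The skin epithelial tops of Bmp3 and Bmp4 were also within counting error of a stromal class that came next. Bmp3 in basal-like over fibroblast-like barcodes gave log2 0.004 (-0.39 to 0.42). Bmp4 stood at 51.7 CPM in matrix-like and 48.5 CPM (8 UMIs) in endothelial barcodes (log2 0.09, -0.99 to 1.37). PG sebocyte-like barcodes were above basal-like ones in 0 of the 5 genes with enough UMIs, beside 7.07%, and below them in Sostdc1 (-3.59, -4.23 to -3.01), Fst (-5.46, -7.35 to -4.09) and Bambi (-1.75, -3.31 to -0.44), beside 19.8%.

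Skin basal-like barcodes were not uniform, and some pairs of the genes were read in the same barcodes more or less often than independent draws give. Sostdc1 and Fst were both present in 213 barcodes against 66.8 expected, and in 87 against 23.8 after thinning to 1000 UMIs. Grem1 and Fst shared 23 barcodes (6.86 expected), Bmp7 and Fst 32 (13.0 expected), and Bmp7 and Sostdc1 33 (16.3 expected). Grem1 and Sostdc1, by contrast, shared 9 (8.57 expected). The ligands Bmp2 and Bmp4 shared 41 (19.3 expected), or 5 against 2.10 after thinning. Bmp3 and Bmp4 shared 40 (26.2 expected), and after thinning this excess was gone, with 4 against 3.68. Bmp2 and Bmp3 shared 20 (16.1 expected), or 1 against 1.85 after thinning.

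In skin basal-like barcodes, other pairs, of Bmp2, Bmp3 or Bmp4 with an antagonist, fell short. Bmp2 shared 15 barcodes with Fst (25.2 expected) and 18 with Sostdc1 (31.4 expected). Bmp3 and Fst shared 11 barcodes (34.2 expected), or 0 against 7.95 after thinning, Bmp3 and Sostdc1 shared 14 (42.7 expected), and Bmp4 and Fst shared 15 (41.0 expected). Bmp4 and Grem1 shared 0 (5.26 expected), though thinning left only 1.2 expected. Bmpr1a lay near expectation with Fst (59, 55.8 expected) and Bmp4 (46, 42.8 expected), and above it with Bambi (10, 4.49 expected). Within the sheath-like class, Sostdc1 and Fst shared 100 barcodes (70.8 expected) and Grem1 and Fst 113 (86.8 expected). There, Bmp3 and Fst shared 8 (6.05 expected) and Bmp4 and Fst 6 (6.05 expected). In skin fibroblast-like barcodes, Bmp3 and Fst shared 15 (10.4 expected) and Bmp4 and Fst 12 (13.5 expected). In PG fibroblast-like barcodes, Bmp4 and Fst shared 6 (10.9 expected). In PG basal-like barcodes, Sostdc1 and Fst shared 50 against 32.8 expected, and Bmp7 and Sostdc1 64 against 62.0.

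**Figure D3:**
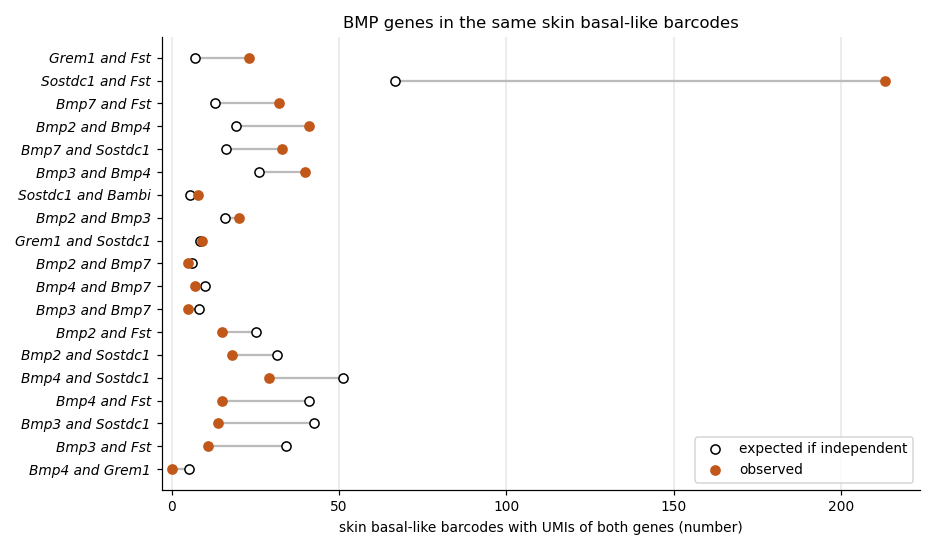
Number of skin basal-like barcodes with UMIs of both genes of a pair (x axis), observed (filled) and expected if the genes were independent (open), for pairs (y axis) of the 9 genes without Bmpr1a, ordered by observed over expected, 1 library and 2959 barcodes. Fst lies above expectation with Sostdc1 (213 against 66.8), Grem1 and Bmp7, and Grem1 and Sostdc1 lie close to it (9 against 8.57). Pairs of Bmp2, Bmp3 or Bmp4 with Fst or Sostdc1 lie below it.

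Fibroblast-like barcodes were split by 6 markers of fascia and adventitial fibroblasts (Pi16, Dpp4, Mfap5, Ly6c1, Ly6a and Cd248), and the outer ends of that range were compared. In skin, the 530 barcodes with 4 to 6 markers had Bmp3 at 51.4 CPM (39.2 to 66.4), against 4.91 (2 UMIs) in the 237 with 0 to 2 markers. Grem1 went the other way, at 11.3 (6.04 to 19.4) and 49.1 CPM (30 to 75.8), while Bmp4 stood at 40.1 and 39.2 CPM and Fst at 150.0 and 159 CPM. In PG, 204 and 278 barcodes fell at these ends. Bmp3 was again at the fascia end, 25.0 CPM (8 UMIs) against 0, as was Bmp7, 40.6 (21.6 to 69.4) against 2.47 CPM (1 UMI). Bmp4 was lower there, 46.8 (26.2 to 77.2) against 114 CPM (83.2 to 152), and Bambi stood at 34.3 (17.1 to 61.4) and 81.6 (56.2 to 115), with overlapping intervals. The skin order of Grem1 was not seen in PG, where it stood at 46.8 (26.2 to 77.2) at the fascia end and 32.1 CPM (17.1 to 55.0) at the other. Another 190 skin and 115 PG barcodes carried 3 markers and were left out. The fascia end held 530 of 957 fibroblast-like barcodes in skin and 204 of 597 in PG. The fibroblast-like ratios of the tissues take no account of this split. Dermal papilla barcodes, a known source of BMP ligands and inhibitors, could not be described, since 6 skin and 0 PG fibroblast-like barcodes had at least 3 of the 9 papilla markers.

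**Figure D4:**
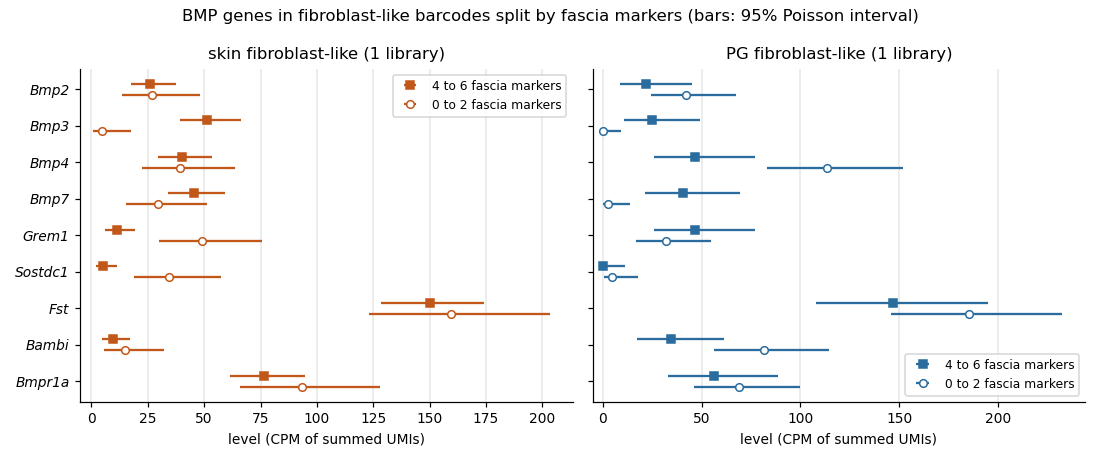
Level of each BMP gene (y axis) in CPM of summed UMIs (x axis, linear) in fibroblast-like barcodes with 4 to 6 (filled squares) or 0 to 2 (open circles) fascia markers, in skin (left) and PG (right), 1 library each, with bars for the 95% Poisson interval. Bmp3 is higher at the fascia end in both tissues (51.4 against 4.91 CPM in skin), and Bmp4 is lower there in PG (46.8 against 114 CPM).

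Among PG sebocyte-like barcodes, the 107 with more early than late markers had Bmpr1a at 64.3 CPM (44.2 to 90.3), Bmp7 at 58.4 (39.4 to 83.4) and Sostdc1 at 19.5 (9.34 to 35.8). The 205 with more late markers (the lipid genes Cidea, Soat1, Awat2, Elovl3 and Far2, of which the last 2 were found in 1.45% and 0.161% of the class) had 22.9 (15.6 to 32.5), 29.6 (21.1 to 40.3) and 2.22 CPM (3 UMIs). The receptor, the ligand and the antagonist were thus all lower at the late end, with overlapping intervals for Bmp7. The early markers include the basal-like markers Krt5, Krt14 and Col17a1, so the early end was chosen in part for basal-like traits. The other 308 barcodes carried equal numbers of both. Basal-like barcodes with at least 2 proliferation markers differed little from those with none in PG for Bmp7 (90.6, 73.3 to 111, against 75, 65.6 to 85.4), and Fst was lower in them (31.1, 21.4 to 43.7, against 58.3, 50 to 67.5). In skin, Grem1 was at 1.63 CPM (2 UMIs) with proliferation markers and 9.62 (7.44 to 12.2) without.

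Some skin barcodes without a class also carried these genes, and they were picked after values had been seen. The 108 with a UMI of Krt75, a companion layer and sheath keratin, had Bambi at 244 CPM (202 to 293) and no Grem1 UMI. The 270 with a UMI of Lef1, a transcription factor of the matrix, had Bambi at 151 (129 to 174) and Bmp4 at 72.0 CPM (57.6 to 88.9). These barcodes are in none of the class levels above.

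The other genes of the pathway were taken from a list of 47. Among the genes listed as targets, 6 of 7 were higher in skin basal-like barcodes, beside 16.8% of all genes, and 0 were higher in PG, beside 18.2%. The inhibitors Smad6 and Smad7 were listed with the transducers and are not in this count. Of these, Smad6 was higher in PG basal-like barcodes and Smad7 in skin. Id3, an inhibitor of differentiation factors and a direct target, stood at 263 CPM in skin and 25.2 in PG (log2 -3.39, -3.67 to -3.12). Id1 stood at 119.7 and 58.1 CPM, and Id4 at 38.0 and 1.08. Msx2 and Dlx3, homeobox genes of the follicle, had 71 and 44 UMIs in skin and 0 in PG, and Msx1 had 20 and 2 UMIs. With 0 set to 3 counts, skin was 12.6-fold higher for Msx2 and 7.83-fold higher for Dlx3. Id2 was the target that did not pass, at 26.5 and 37.2 CPM (log2 0.49, 0.20 to 0.78). In upper-follicle-like barcodes 4 of the 6 targets read were higher in skin, namely Id3, Id4, Msx2 and Dlx3, beside 16.2% of all genes. In fibroblast-like barcodes 1 of 6 was, Id4, beside 6.90%, while Id3 stood at 750.4 CPM in skin and 1283 in PG, under 2-fold. In skin, Msx2 reached 153 CPM in matrix-like and 95.7 in inner-root-sheath-like barcodes, and Dlx3 95.8 and 252, hair classes that also carried Bambi.

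**Figure D5:**
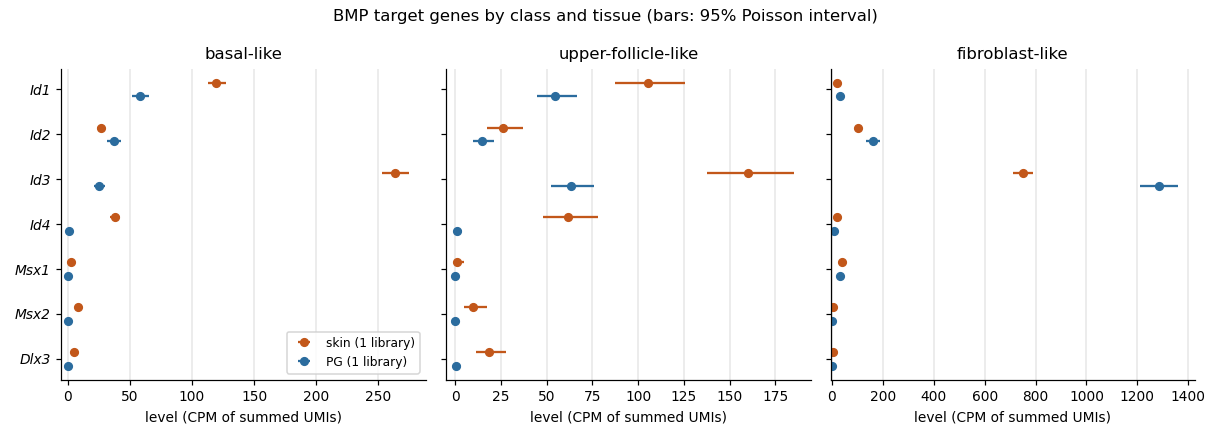
Level of 7 BMP target genes (y axis) in CPM of summed UMIs (x axis, a separate linear scale for each class) in basal-like, upper-follicle-like and fibroblast-like barcodes of skin (orange) and PG (blue), 1 library each, with bars for the 95% Poisson interval. Id3 is higher in skin basal-like barcodes (263 against 25.2 CPM) and not in fibroblast-like barcodes, where both tissues are high.

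The shares of all genes in basal-like barcodes, 18.2% higher in PG and 16.8% in skin, stand beside the counts that follow. Of the transducers and their inhibitors, 7 of 8 were read, and 1 was higher in PG and 2 in skin. Smad7, an inhibitor that BMP and TGF-β signals induce (38.9 CPM in skin, 11.4 in PG), and Smad4 (84.8 and 34.4) were higher in skin. Smad6, the inhibitor more specific to BMP signals, was higher in PG (0.804 and 11.2 CPM, log2 3.80, 2.65 to 5.18). The 2 inhibitory Smads thus differed in opposite directions. Of the other antagonists, Nbl1, a secreted relative of Grem1, was higher in PG basal-like barcodes (29.8 and 176 CPM), and Fstl1 (14.5 and 4.52), Nog (17 UMIs and 1) and Chrdl1 (15 UMIs and 0) were higher in skin, which makes 1 and 3 of the 6 read. Of 9 other receptors, Acvrl1 was higher in PG (2.87 and 11 CPM) and Bmpr1b in skin (17 UMIs and 0). None of the 4 other ligands read in basal-like barcodes passed.

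In fibroblast-like barcodes the other ligands differed more. Gdf10, also called Bmp3b, stood at 99.3 CPM in skin and 234 in PG, while Bmp5 (18.7 and 3.31), Bmp6 (12.5 and 1.10) and Bmp8a (13 UMIs and 0) were higher in skin. Of the 8 ligands read, 1 was thus higher in PG, beside 9.02% of all genes, and 3 in skin, beside 6.90%. Chrdl1, a chordin-like antagonist of Bmp4, stood at 161 CPM in skin and 23.1 in PG (log2 -2.80, -3.51 to -2.16), and Fstl3 at 12.0 and 39.7. Nog, the antagonist noggin, was at 12.5 CPM in skin sheath-like barcodes, beside Grem1 and Fst. Inhbb, an activin subunit and so a partner of Fst, was at 73.1 CPM in skin and 39.6 in PG upper-follicle-like barcodes.

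The genes whose pattern was most like that of a member were found by Pearson correlation of log2(CPM + 1) over 19 groups of class and tissue with at least 30 barcodes, which leaves out the contractile classes and so the highest Grem1 level. These groups share 2 libraries and differ in depth, so r is a description. Sostdc1 was closest to Lamb3 (r = 0.901), Fcgbp (0.900) and Sox9 (0.866), and Grem1 to Angptl7 (0.889), Il31ra (0.838) and Tnc (0.821), all 3 of which were highest in sheath-like barcodes among these groups, as Grem1 was. Bmp7 was closest to Tst (0.913), Dbt (0.860) and Efs (0.848), and Bmp3 to Ackr2 (0.908), Thbs2 (0.843) and Rab30 (0.829). The remaining sets were looser for Bmp4, Hs3st1 (0.813), Csgalnact1 (0.80) and Zfp260 (0.779), for Bmp2, Nuak1 (0.784), Gas8 (0.771) and Man1c1 (0.758), and for Fst, Il11ra1 (0.804), St3gal2 (0.789) and Pi15 (0.786). Bambi was closest to Fam49a (0.848), Zfp618 (0.834) and Heyl (0.795), and Bmpr1a to Usp53 (0.901), Sh3d19 (0.887) and Zfp871 (0.886). Of the genes named here, Ackr2 and Gas8 (both 21.4 CPM) and Heyl (32.1 CPM) were highest in PG endothelial barcodes. In that class 3 counts equal 32.1 CPM, so these highest levels rested on no more than 3 UMIs. Among the 9 genes themselves, r ran from -0.577 for Sostdc1 and Bambi to 0.686 for Bmp7 and Bmpr1a. It was positive for Bmp3 with Grem1 (0.555) and Fst (0.599), and for Bmp4 with Grem1 (0.375) and Fst (0.376).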

How the data were processed

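The authors deposited 1 matrix of raw UMI counts per tissue, not normalized and covering every barcode of the barcode list, as Cell Ranger 4 wrote it per the file headers. The submitters' processing notes name mm10, and the annotation release is not given in the sources used here. Positions are from GENCODE vM21, where all 9 identifiers were found.

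Barcodes were scored for each class as the mean over its markers of the scaled log level, capped at 1 and scaled to the 80th percentile of nonzero values. A class needed a score of 0.2, at least 2 markers and a margin of 0.1 over the next class, and at least 20 barcodes to be reported. Sheath-like barcodes needed 2 of 8 sheath markers, and at least 4 of these markers had to be present in 10% of the barcodes taken. They came from barcodes scoring highest as basal-like, suprabasal-like or upper-follicle-like, with fibroblast-like and endothelial scores under 0.2. The score and margin above were not required of them, and the sheath gate replaced any class already given. Near the margin lay 1414 skin and 1025 PG barcodes. No doublet caller was used in the reported values. Outside the sheath gate, barcodes whose best score was under the margin stayed without a class. Counts were summed by class and scaled to CPM. Levels have exact Poisson intervals, ratios exact binomial intervals and shares exact Clopper-Pearson intervals, at 95%. A count of 0 was set to 3 counts. The steps were tested on simulated data.

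The 9 genes and all gene lists were chosen with earlier results of these data known. All 9 were to be named, along with pathway genes by size of ratio or level and the 3 genes most like each member among those reaching 20 CPM in some class of at least 30 barcodes. Alternatives covered barcode filters, doublets, clusters, margins, scaling, free RNA, fold and thinning. Leaving out the sheath gate, and thinning before barcodes with both genes were counted, were added after the data had been seen. Python 3.11.15, numpy 2.4.6, scipy 1.17.1, pandas 2.3.3, scanpy 1.11.5, leidenalg 0.10.2 and matplotlib 3.10.9 were used.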

Additional observations from a re-analysis of the deposited data

Results flagged for a closer look

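Bmp7 went opposite ways in the tissues under the same contrast. Fibroblast-like over basal-like barcodes gave a log2 ratio of 1.66 (1.2 to 2.12) in skin, from 70 and 100 UMIs, and of -2.0 (-2.77 to -1.32) in PG, from 18 and 370 UMIs. With 1 library per tissue, the difference between the ratios was not tested.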

How the results depend on the processing

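Each tissue is 1 library, so no replicate could be left out and depth limits the sebocyte-like (21 skin barcodes), contractile and PG suprabasal-like comparisons most. No paired analysis was possible because the result comes from no test and each tissue has 1 library. Of the ratios recomputed, 323 stayed within the interval of the reported ratio, 18 moved out of it and 1 reversed, Bambi in upper-follicle-like barcodes (log2 1.80 with Leiden clusters). Reversal was scored only for ratios past 2-fold, so a smaller ratio could change sign within its interval. Of the levels, 140 kept within the interval and 18 moved, and of the counts and shares 179 kept within 1.5 times and 32 moved. The cause of these changes was not tested. Leaving the most abundant genes out of the scaling put the median ratio of all genes in suprabasal-like barcodes at 0.15 on the log2 scale.

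Counts of the 9 genes past 2-fold moved as follows. With at least 1000 genes and 2000 UMIs, 1 was higher in PG in upper-follicle-like barcodes and 0 were higher in either tissue in fibroblast-like barcodes. In fibroblast-like barcodes, 2 were higher in PG with doublets removed (7.12% of skin and 3.77% of PG barcodes) or the margin 2 times as large. There, 2 were higher in skin at 5% mitochondrial UMIs, with Leiden clusters or without a margin, 3 with doublets removed or free RNA subtracted, and 0 at 4-fold. In basal-like barcodes 2 were higher in PG with Leiden clusters, the margin 2 times as large or free RNA subtracted. The wider margin also gave 1 higher in PG in upper-follicle-like barcodes. Without a margin, 2 were higher in skin in suprabasal-like barcodes, and 1 was higher in PG and 4 in skin in sebocyte-like barcodes. In suprabasal-like barcodes 1 was higher in PG with the mean of CPM per barcode and at 4-fold.

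For Sostdc1 and Fst, observed over expected was 3.65 after thinning to 1000 UMIs, from 3.19, and for Bmp3 and Fst 0, from 0.322. Of the other pathway genes, 1 ligand was higher in skin basal-like barcodes without the sheath gate. With at least 1000 genes and 2000 UMIs, 0 ligands were higher in either tissue, 0 receptors were higher in PG, 2 transducers were higher in skin and 0 targets were higher in skin in fibroblast-like barcodes, and 2 receptors were higher in skin in basal-like barcodes. With free RNA subtracted, 2 receptors were higher in skin in basal-like barcodes, and 1 target was higher in PG and 0 in skin in fibroblast-like barcodes. Under 20 barcodes in a tissue, the comparison was not run, which left out sebocyte-like barcodes under 4 alternatives, contractile barcodes under 4 and suprabasal-like barcodes under 2.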
